A study of Mus musculus with 4 samples.

Results

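The 34 genes described here make up the cholesterol and fatty acid synthesis programme and its lipoprotein partners. They were listed by name for their known roles, at a time when earlier results of these data were known, and fall into 4 groups: sterol sensing with 5 genes, cholesterol synthesis with 17, fatty acid synthesis and desaturation with 8, and lipoprotein handling with 4. All 34 had at least 1 transcript among the 16335 genes of the table, and all 34 were among the 14340 genes with enough counts to be tested. The libraries were made from hypothalamic RNA of male C57BL/6 mice kept for 12 weeks on Western diet (WD), food with 60% fat offered together with a 30% sucrose solution. The series compared WD-fed wild-type (WT) mice with WD-fed Tas1r3-/- mice, which lack a subunit of the sweet and umami taste receptors, to learn what the loss of this receptor does to hypothalamic gene expression. Each group is represented here by 2 libraries, fewer than the mice per group of the original work. The Tas1r3-/- mice carry the Tas1r3tmCSZ allele, a conventional knockout present in every cell of the body. The WT mice were littermates, matched for age and weight when the groups were formed. Both groups ate WD, so the comparison is one of genotype on this diet. The paper reports less weight gain on WD in Tas1r3-/- than in WT mice, so genotype and weight gain cannot be told apart here. The labels do not say that the 2 libraries of a group came from separate animals, and p-values measure the spread between these libraries only.

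Brain cells make nearly all of their own cholesterol, because lipoproteins of the blood do not cross into the brain. The genes of this synthesis are switched on together by SREBP transcription factors, which the escort protein Scap carries out of the endoplasmic reticulum when sterols are scarce and which Insig proteins hold back when sterols are plentiful. Oligodendrocytes use the products for myelin, while astrocytes secrete cholesterol on apolipoprotein E particles that neurons take up through receptors such as Lrp1.

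Estimated counts summed to between 5874782 and 6273772 a library, and Tas1r3, the targeted gene, had 35.3 and 27 estimated counts in WT WD against 7 and 7.01 in Tas1r3-/- WD. The library labelled WT WD replicate 2 went against its tissue label. A list of 14 hypothalamic neuropeptides summed to 83.9 CPM (a gene's counts relative to library size, scaled by edgeR's TMM method) in it and to between 1499 and 2136 CPM in the other 3, and all 14 genes were lowest there. Thalamus markers summed to 2210 CPM against 199 to 374, with 9 of 10 highest there, and choroid plexus markers to 774 CPM against 82.8 to 93.9, with 5 of 8 highest there. Ttr alone gave 678 CPM of that sum, while Prlr was lower there at 7.58 CPM against 28.2 to 43.0 CPM. Red blood cell markers reached 1960 CPM in it against 381 to 769 CPM, with 5 of 5 highest there. Neuron markers summed to 6544.5 CPM in WT WD replicate 2 against 4509.5 to 4888.7 CPM in the others, with 6 of 8 highest there. Tas1r3-/- WD replicate 1 held 1457 CPM of pituitary markers, 8 of 8 detected, against 2.31 to 14.6 CPM elsewhere. Lipid synthesis is strong in myelinating cells, so their markers are given too: the 10 oligodendrocyte markers summed to 5323 and 6604 CPM in WT WD and to 6334 and 6436 CPM in Tas1r3-/- WD, and the 10 astrocyte markers to between 3736 and 3997 CPM in all 4 libraries. The oligodendrocyte sum was thus lowest in WT WD replicate 1, and the astrocyte sum was level. Single astrocyte markers were not level, as WT WD replicate 2 was highest for 4 of the 10 and lowest for 3. Slc1a3 was at 561 CPM there against 792 to 827 CPM in the others. In whole tissue, fewer cells of a type and less RNA per cell cannot be told apart. The results below are therefore also given without WT WD replicate 2. This leaves 1 WT library, the one with the lowest oligodendrocyte sum, which is assumed to vary like the others. The part of that low sum in the values without WT WD replicate 2 was not tested.

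**Figure D1:**
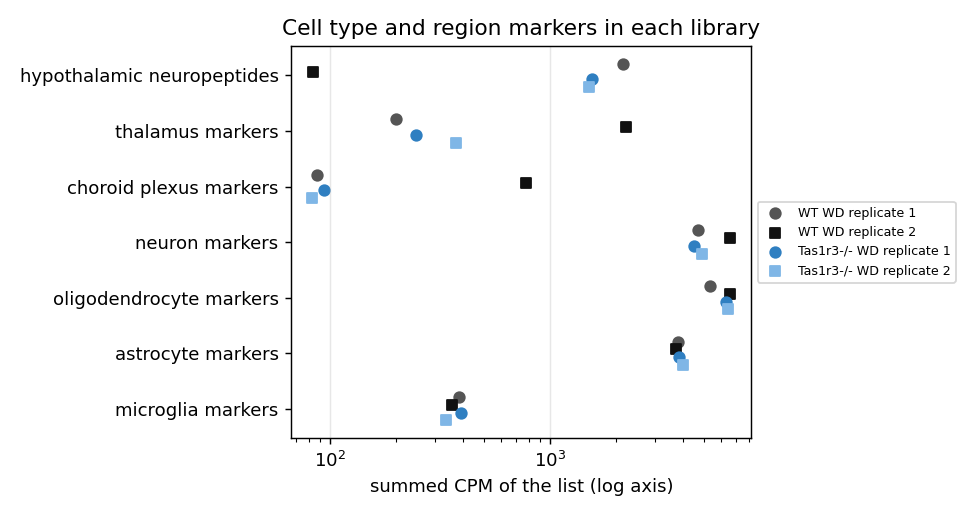
Summed CPM (log axis) of 7 marker lists, 1 point for each of the 4 libraries. WT WD replicate 2 stands apart from the other 3 libraries for hypothalamic neuropeptides (83.9 CPM), thalamus markers (2210 CPM) and the choroid plexus list (774 CPM, of which Ttr is 678 CPM). It is also highest for neuron markers (6544.5 CPM), while the astrocyte sum is level.

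Levels of different genes were compared as CPM for each kilobase (kb) of the gene's canonical transcript, and they spanned from 3.34 to 1019 CPM per kb. Apoe, the main apolipoprotein of the brain, was highest at a mean of 1019 CPM per kb, between 906 and 1123 in single libraries. Scd2, the brain's main desaturase of saturated fatty acids, followed at 342 CPM per kb, between 289 and 369, and its range did not touch that of Apoe. The polyunsaturated fatty acid desaturases Fads2 (109) and Fads1 (97.3) came next, and their ranges of 96.1 to 122 and 88.3 to 112 overlapped. Scd1 (68.3) and Acly (62.5), which supplies acetyl-CoA, overlapped as well. In the cholesterol pathway the level was uneven from step to step. Hmgcs1, which makes the precursor of mevalonate, stood at 55.8 CPM per kb, the farnesyl diphosphate synthase Fdps at 48.0 and the phosphomevalonate kinase Pmvk at 47.4, and their ranges overlapped. The mevalonate kinase Mvk, the step just before Pmvk, stood at 4.81, the ketosteroid reductase Hsd17b7 at 4.26 and the isopentenyl diphosphate isomerase Idi1 at 3.34, the lowest of the 34. The cholesterol exporter Abca1 was also low at 5.62 CPM per kb, against 17.4 for Abcg1.

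**Figure D2:**
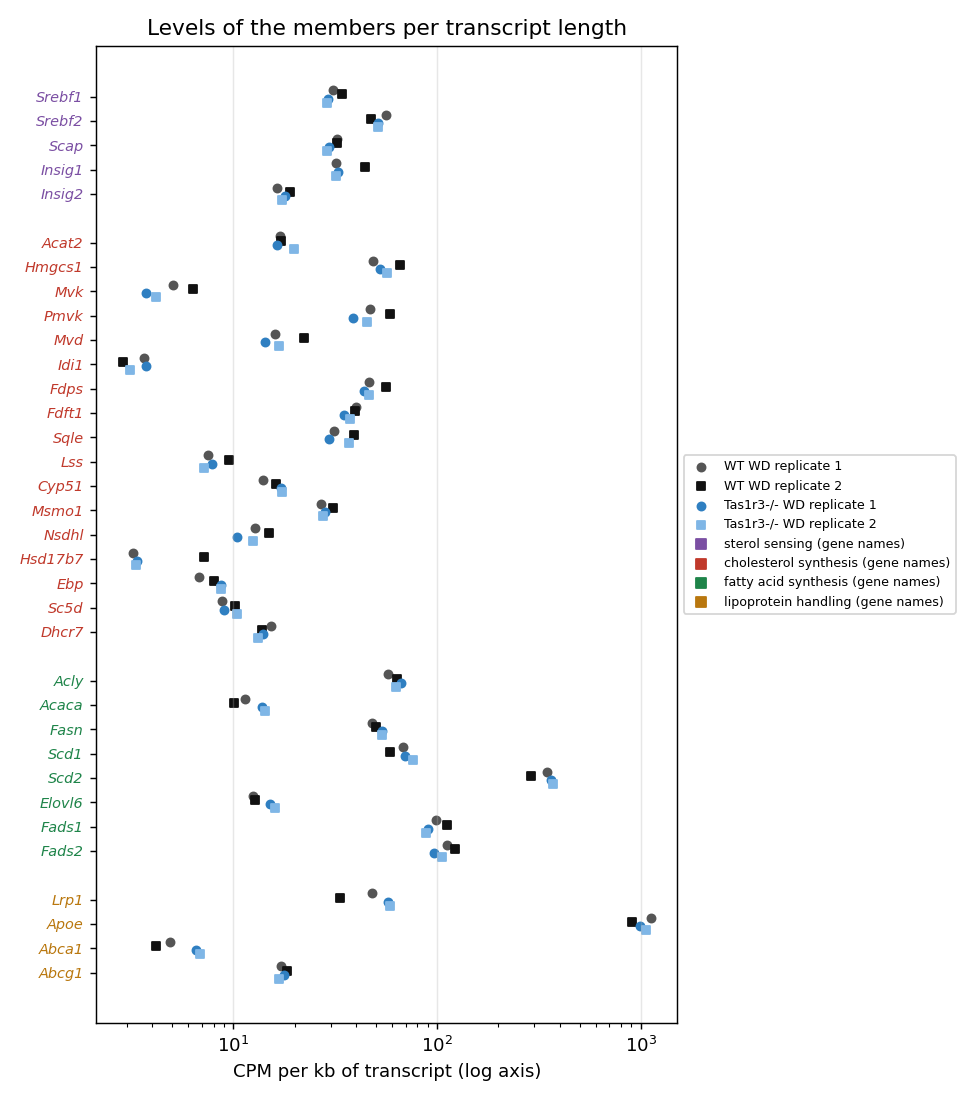
CPM per kb of transcript (log axis) for the 34 genes, 1 point a library, with gene names coloured by group. Apoe is highest at a mean of 1019 and Idi1 lowest at 3.34.

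No gene differed between WD-fed Tas1r3-/- and WD-fed WT mice at the 1.5-fold and adjusted p under 0.05 threshold of edgeR's quasi-likelihood test, neither any of the 34 nor any of the 14340 tested (0%). DESeq2, the method the study states, called 8 of 13227 genes with an adjusted p (0.0605%) in these libraries, none of them among the 34. The paper reports many more genes at these thresholds, from more mice per group. In edgeR the smallest adjusted p of the 34 was 0.756, which was also the smallest of all genes. At an unadjusted p under 0.05, 2 of the 34 were higher in Tas1r3-/- WD, Abca1 and Acaca, beside 3.5% of all genes tested, and 1 was lower, Mvk, beside 1.88%. For 17 of the 34 both Tas1r3-/- libraries lay on the same side of both WT libraries, 9 above and 8 below. Among all genes this was so for 39.6%, with 20.6% above and 19% below. The members' counts are thus near those of all genes.

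The 4 groups pointed in different directions by small amounts. The median log2 fold change of Tas1r3-/- WD over WT WD was -0.15 for sterol sensing, -0.10 for cholesterol synthesis, 0.16 for fatty acid synthesis and 0.26 for lipoprotein handling, beside -0.0057 for all genes tested. Without WT WD replicate 2 the medians were -0.08, 0.01, 0.13 and 0.15, so that the cholesterol synthesis median moved to about 0. The gap between the 2 WT libraries was larger than the difference between the groups in 21 of the 34, and in 65.4% of all genes. WT WD replicate 2 was the highest of the 4 libraries in 17 of the 34 and the lowest in 8, where it was highest in 33.9% and lowest in 34.6% of all genes.

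**Figure D3:**
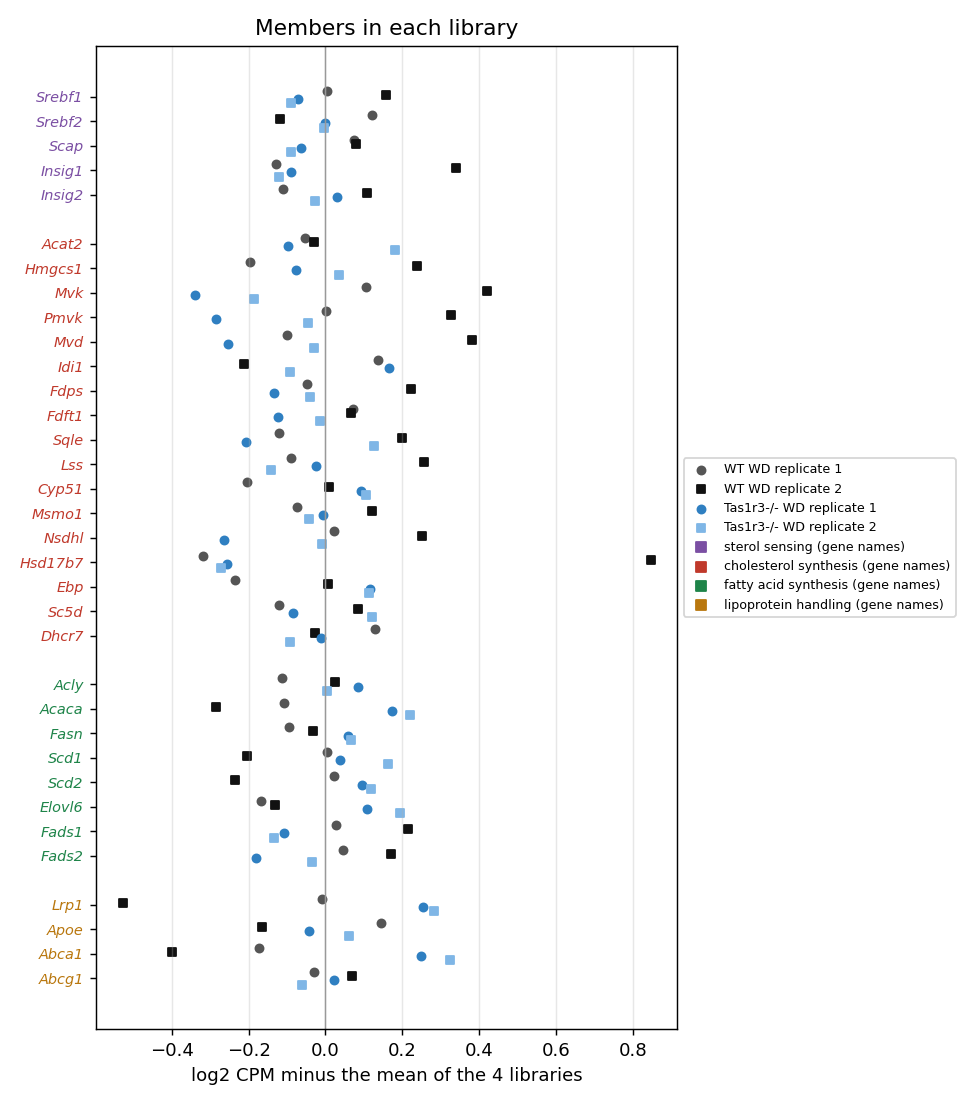
Log2 CPM of the 34 genes minus each gene's mean over the 4 libraries, 1 point a library. WT WD replicate 2 is the highest library in 10 of the 17 cholesterol synthesis genes, farthest out in Hsd17b7, while Lrp1 and Abca1 have it on the left and both Tas1r3-/- libraries on the right.

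All 5 sterol sensing genes had a lower mean in Tas1r3-/- WD, but Srebf2 (log2 fold change -0.0089) and Insig2 (-0.0011) were near 0. The groups did not overlap in 2 of the 5 (40%), beside 39.6% of all genes. Srebf1, the SREBP that mainly drives fatty acid genes, was at 133 and 148 CPM in WT WD and at 127 and 125 CPM in Tas1r3-/- WD. Scap, the escort of both SREBPs, was at 137 and 137 CPM against 124 and 122 CPM. In both genes the Tas1r3-/- libraries were the 2 lowest, by log2 fold changes of -0.16 (SE 0.13) and -0.15 (SE 0.12), which were -0.08 and -0.15 without WT WD replicate 2. Srebf2, the SREBP that mainly drives cholesterol synthesis, was at 284 and 240 CPM in WT WD and at 260 and 260 CPM in Tas1r3-/- WD, so that both knockout libraries fell between the WT libraries. Insig1, which retains Scap and is itself an SREBP target, was at 87.3 and 121 CPM against 89.7 and 87.7 CPM. Here WT WD replicate 2 alone was high, and the log2 fold change of -0.23 (SE 0.19) became 0.02 without it. Insig2, the isoform that responds less to SREBPs, had a log2 fold change of -0.0011 (SE 0.14).

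Of the 17 cholesterol synthesis genes, 12 had a lower mean in Tas1r3-/- WD and 5 a higher one. The groups did not overlap in 4 that were lower and 2 that were higher, 35.3% of the 17 beside 39.6% of all genes. WT WD replicate 2 exceeded WT WD replicate 1 in 14 of the 17, against 49.2% of all genes, and was the highest library in 10 of the 17. Without it, 9 of the 17 had a higher mean in Tas1r3-/- WD and 8 a lower one.

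In the early, mevalonate part of the pathway the groups did not overlap for both kinases, Mvk and Pmvk. Hmgcs1 was at 198 and 268 CPM in WT WD and at 215 and 233 CPM in Tas1r3-/- WD, with the knockout libraries inside the WT range. Mvk (ENSMUSG00000041939, GRCm39 chr5:114582267-114601803, plus strand) was at 24.9 and 31.0 CPM against 18.3 and 20.3 CPM. All of its Tas1r3-/- values were below both WT values, with a log2 fold change of -0.53 (SE 0.19, unadjusted p = 0.038, adjusted p = 0.756 in edgeR), a level 30.8% lower. Without WT WD replicate 2 the log2 fold change of Mvk was -0.37 (edgeR adjusted p = 0.432), and with all libraries its unadjusted p in DESeq2 was 0.098. Pmvk, the kinase that follows, was at 56.0 and 70.2 CPM against 46.0 and 54.2 CPM, a log2 fold change of -0.33 (SE 0.17) that was -0.16 without WT WD replicate 2. The decarboxylase Mvd, the third of these enzymes in a row, overlapped between the groups at -0.30 (SE 0.22), and without WT WD replicate 2 it was at -0.04. Acat2, the thiolase at the head of the pathway, was at 0.09 (SE 0.15), Idi1 at 0.07 (SE 0.27) and Fdps at -0.18 (SE 0.15), all with groups that overlapped.

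The squalene steps showed small gaps. Fdft1, the squalene synthase, was at 139 and 138 CPM in WT WD and at 121 and 130 CPM in Tas1r3-/- WD, a log2 fold change of -0.14 (SE 0.13) with no overlap. Sqle, the squalene epoxidase and a control point of the pathway, was at 87.5 and 109 CPM against 82.4 and 104 CPM. The 2 groups of Sqle ran side by side, and each held 1 low and 1 high library. Lss, which closes the ring to lanosterol, was at -0.17 (SE 0.17) with overlap.

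The late, sterol-modifying steps were mixed. Cyp51, the lanosterol demethylase, was at 69.3 and 80.3 CPM in WT WD and at 85.0 and 85.8 CPM in Tas1r3-/- WD, higher by a log2 fold change of 0.19 (SE 0.13), and by 0.30 without WT WD replicate 2 (edgeR adjusted p = 0.271). Ebp, a sterol isomerase, was at 11.9 and 14.01 CPM against 15.1 and 15.1 CPM, also with both knockout libraries on top, at 0.22 (SE 0.20) with all libraries and 0.35 without WT WD replicate 2. Nsdhl, a dehydrogenase of the demethylation complex, went the other way, at 33.5 and 39.2 CPM against 27.5 and 32.8 CPM, with a log2 fold change of -0.27 (SE 0.17) that was -0.15 without WT WD replicate 2. Hsd17b7 (GRCm39 chr1:169777093-169796813, minus strand) had the largest difference of the 34, a log2 fold change of -0.64 (SE 0.41), and it came from 1 library. It was at 14.8 and 33.1 CPM in WT WD and at 15.4 and 15.3 CPM in Tas1r3-/- WD, so WT WD replicate 2 was 2.24 times WT WD replicate 1, and without it the log2 fold change was 0.05. Dhcr7, the reductase that makes cholesterol from its immediate precursor, was at 45.4 and 40.7 CPM against 41.1 and 38.9 CPM, with overlap. Msmo1 was at -0.05 (SE 0.13) and Sc5d at 0.04 (SE 0.15), both with overlap.

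A feature of these genes that the choice of members did not use is the sequence upstream of their start. RefSeq promoters of GRCm38.p6, from 250 bases before to 50 bases after the annotated start, were matched by symbol for 27 of the 34. Fads1, Scd1, Abcg1, Sqle, Fdft1, Fdps and Scd2 had no entry. The CCAAT box, a site for the factor NF-Y that works beside SREBPs, was searched as ATTGG on either strand. It was in 13 of 14 cholesterol synthesis genes (92.9%), 4 of 5 sterol sensing genes, 2 of 5 fatty acid genes and 0 of 3 lipoprotein genes, beside 42.6% of the 11354 tested genes with a promoter. The GC box of Sp1, searched as GGGCGG on either strand, was in 22 of the 27 (81.5%) and in 13 of the 14 cholesterol synthesis genes, beside 68.1% of tested genes. No matches of the 2 motifs shared letters in these promoters. The sterol regulatory element bound by SREBPs, searched as TCACNCCAC on either strand, was in 1 of the 27, Hmgcs1, beside 1.35% of tested genes. A match is a description of letters, not evidence of binding. A miss is no evidence against binding either, as only these letters in this stretch were searched. The 40-base windows around the CCAAT box, in capitals, are shown for 6 enzymes along the pathway. The GC box was in as many of the cholesterol synthesis genes (13 of 14), but also in a larger share of tested genes. The last line is the 60-base window of Hmgcs1 with the sterol element in capitals. Each is written 5′ to 3′ on the strand of its gene.
Hmgcs1: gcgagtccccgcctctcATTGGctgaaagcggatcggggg
Mvk: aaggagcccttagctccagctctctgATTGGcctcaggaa
Lss: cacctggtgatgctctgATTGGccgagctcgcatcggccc
Cyp51: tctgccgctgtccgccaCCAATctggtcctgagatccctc
Hsd17b7: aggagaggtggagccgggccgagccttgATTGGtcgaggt
Dhcr7: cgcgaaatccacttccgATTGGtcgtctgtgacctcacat
Hmgcs1 sterol element: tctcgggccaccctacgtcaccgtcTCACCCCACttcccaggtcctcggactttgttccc

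In GRCm38.p6 these windows lie at chr13:119690289-119690328 on the plus strand for Hmgcs1, chr5:114444229-114444268 on the plus strand for Mvk, chr10:76531526-76531565 on the plus strand for Lss, chr5:4104704-4104743 on the minus strand for Cyp51, chr1:169969206-169969245 on the minus strand for Hsd17b7 and chr7:143830148-143830187 on the plus strand for Dhcr7. The sterol element window of Hmgcs1 is chr13:119690189-119690248 on the plus strand. Counted from the annotated start to the first capital, the CCAAT box stands at -45 in Hmgcs1, -14 in Mvk, -62 in Lss, -29 in Cyp51, -12 in Hsd17b7 and -49 in Dhcr7, and the sterol element of Hmgcs1 at -137. A relation between these motifs and the differences between the groups was not tested.

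Fatty acid synthesis genes had a higher mean in Tas1r3-/- WD in 6 of 8, and the groups did not overlap in 7 of 8, 5 above and 2 below, beside 20.6% of all genes above and 19% below. With a correction for transcript length, described below, this was so in 5 of 8, 2 above and 3 below. Of the 13738 genes tested with that correction, 2314 were above and 2575 below. Acaca (ENSMUSG00000020532, GRCm39 chr11:84020476-84292477, plus strand), the carboxylase that commits acetyl-CoA to fatty acids, was at 108 and 95.9 CPM in WT WD and at 132 and 136 CPM in Tas1r3-/- WD. Both knockout libraries were above both WT libraries, with a log2 fold change of 0.39 (SE 0.13, unadjusted p = 0.034, adjusted p = 0.756 in edgeR), a level 31.0% higher. Without WT WD replicate 2 it was at 0.31 (edgeR adjusted p = 0.282). The unadjusted p of Acaca was 0.067 in DESeq2 and 0.063 in edgeR with a replicate block, and with the length correction its log2 fold change was 0.17 (unadjusted p = 0.255 in edgeR). Fasn, the synthase that builds palmitate, was at 518 and 541 CPM against 576 and 579 CPM, a log2 fold change of 0.13 (SE 0.12). Elovl6, which lengthens palmitate, was at 76.3 and 78.3 CPM against 92.4 and 98.1 CPM, a log2 fold change of 0.30 (SE 0.12, unadjusted p = 0.055, adjusted p = 0.756 in edgeR). The replicates of Elovl6 were close in both groups, and the value was 0.32 without WT WD replicate 2 (edgeR adjusted p = 0.259). Acly overlapped at 0.09 (SE 0.13).

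Of the 4 desaturases among the members, the 2 Scd genes had higher means in Tas1r3-/- WD and the 2 Fads genes lower means. Scd1 was at 342 and 296 CPM in WT WD and at 351 and 382 CPM in Tas1r3-/- WD, and Scd2 at 1885 and 1576 CPM against 1983 and 2014 CPM. These 2 desaturases of saturated chains, neighbours on chromosome 19 with similar sequences between which counting could misplace reads, had both knockout libraries on top, by log2 fold changes of 0.20 (SE 0.14) and 0.21 (SE 0.15). In both, WT WD replicate 2 was the lowest library, and without it the values were 0.10 and 0.08. Fads1 was at 350 and 399 CPM against 319 and 313 CPM, a log2 fold change of -0.24 (SE 0.13). Fads2 was at 364 and 397 CPM against 312 and 344 CPM, a log2 fold change of -0.22 (SE 0.14). Both polyunsaturated fatty acid desaturases, which also neighbour each other on chromosome 19, had the 2 knockout libraries at the bottom, and without WT WD replicate 2 both log2 fold changes were -0.15. None of the 4 desaturases reached an unadjusted p under 0.05 in edgeR with all libraries. On the list of other fatty acid genes, the groups overlapped for Scd3 (-0.68, SE 0.52) and Fads6 (-0.30, SE 0.32). They did not overlap for Fads3 (-0.25, SE 0.13). Without WT WD replicate 2, Scd3 was at 0.09, Fads6 at 0.21 and Fads3 at -0.21.

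In lipoprotein handling the 2 longest genes stood out. Abca1 (ENSMUSG00000015243, GRCm39 chr4:53030787-53159900, minus strand), which loads cholesterol onto apolipoproteins, was at 50.2 and 42.9 CPM in WT WD and at 67.2 and 70.7 CPM in Tas1r3-/- WD. The gap between the groups was wider than the gap within either, with a log2 fold change of 0.57 (SE 0.14, unadjusted p = 0.010, adjusted p = 0.756 in edgeR), a level 48.2% higher, and 0.46 without WT WD replicate 2 (edgeR adjusted p = 0.186). Lrp1, the receptor that takes up apolipoprotein E particles, was at 712 and 497 CPM against 854 and 872 CPM, a log2 fold change of 0.51 (SE 0.21, unadjusted p = 0.056, adjusted p = 0.756 in edgeR). WT WD replicate 2 was far below the other WT library, and without it Lrp1 was at 0.28 (edgeR adjusted p = 0.199). Apoe was at 2449 and 1976 CPM against 2152 and 2313 CPM, so both knockout libraries lay between the WT libraries, with a log2 fold change of 0.01 (SE 0.16). Abcg1, the partner exporter that loads lipids onto existing particles, was at -0.04 (SE 0.13) with overlap.

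**Figure D4:**
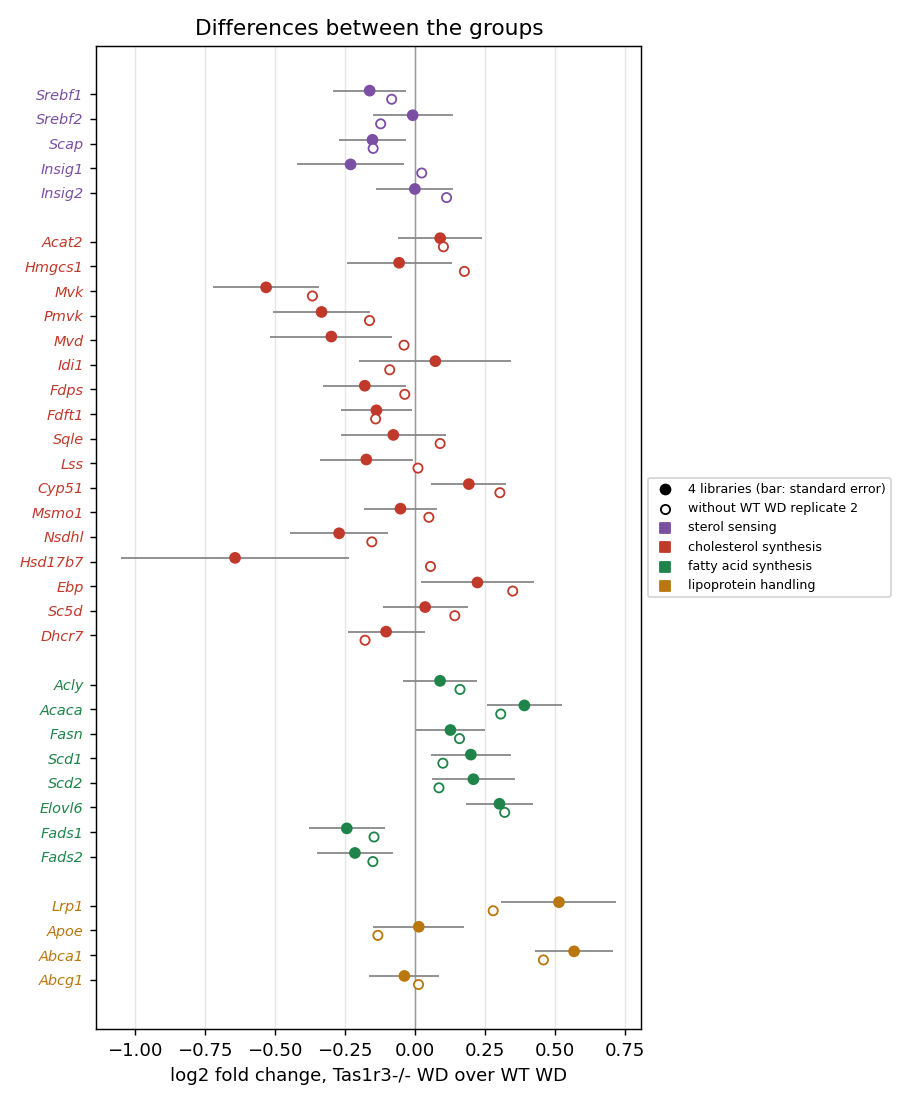
Log2 fold change of Tas1r3-/- WD over WT WD for the 34 genes, filled points from 4 libraries with their standard error and open points without WT WD replicate 2. Hsd17b7 moves from -0.64 to 0.05 and Insig1 from -0.23 to 0.02, while Abca1 (0.57 and 0.46), Acaca (0.39 and 0.31) and Elovl6 (0.30 and 0.32) stay on the same side.

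The number of libraries limited these comparisons, and which library was left out mattered. Without WT WD replicate 2, 5 of the 34 had an unadjusted p under 0.05, namely Cyp51, Acaca, Elovl6, Lrp1 and Abca1, all higher in Tas1r3-/- WD, beside 2011 of 14710 genes (13.7%). Of the 34, 0 were called by edgeR, beside 32 of all genes (0.218%). Without WT WD replicate 1, so that the library with thalamus markers alone stood for WT, 18 had an unadjusted p under 0.05, beside 5007 of 14837 genes (33.7%), and 4 were called by edgeR, Mvk and Hsd17b7 lower and Lrp1 and Abca1 higher, beside 2121 of all genes (14.3%). Without Tas1r3-/- WD replicate 1 the median log2 fold change of the 34 was -0.047, beside -0.014 for all genes tested. Without Tas1r3-/- WD replicate 2 it was -0.066, beside -0.0094.

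Transcript length moved with the difference between the groups across all genes. The median log2 fold change was -0.19 in the 661 genes under 1 kb and 0.29 in the 442 genes of at least 10 kb. Of the 678 genes of at least 9 kb, 369 (54.4%) had both Tas1r3-/- libraries above both WT libraries and 19 had both below. The 34 hold 4 genes of this length, Lrp1 (14.9 kb), Fasn (10.8 kb), Abca1 (10.3 kb) and Acaca (9.51 kb), and all 4 had both knockout libraries on top. With a length trend removed from each library, Abca1 was at 0.33 (unadjusted p = 0.065 in edgeR), Lrp1 at 0.18, Acaca at 0.17 and Fasn at -0.13, while Mvk was at -0.58 (unadjusted p = 0.028 in edgeR). Elovl6, at 6.13 kb, was at 0.21. With this correction the groups did not overlap in 14 of the 34, 5 above and 9 below, beside 35.6% of all genes. Mvk was the 1 gene of the 34 with an unadjusted p under 0.05 in edgeR, beside 500 of 13738 genes tested.

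**Figure D5:**
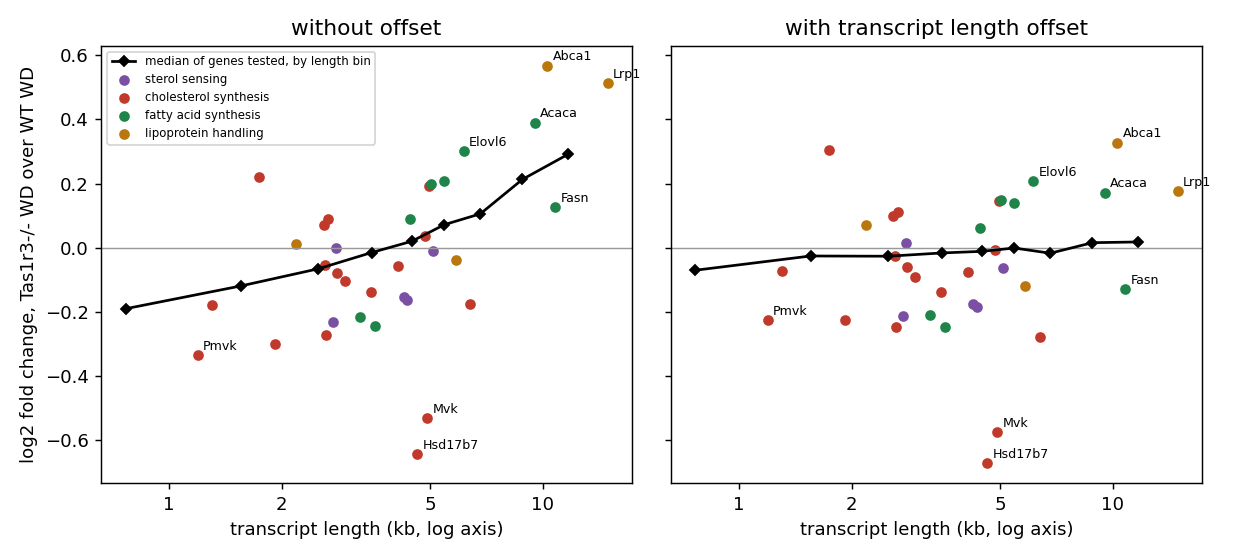
Log2 fold change of Tas1r3-/- WD over WT WD against transcript length (kb, log axis), left without and right with a transcript length offset. Diamonds are medians of all genes tested in bins of length, which run from -0.19 to 0.29 on the left and stay near 0 on the right. Coloured points are the 34 genes, of which Abca1 moves from 0.57 to 0.33 and Fasn from 0.13 to -0.13.

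Of the 34, 22 had 1 transcript in the table and 12 had more, which gave 59 transcripts, 54 of them tested. In edgeR on transcripts 3 of these 54 had an unadjusted p under 0.05, beside 4.6% of 25725 transcripts, and the smallest adjusted p of a member's transcript was 0.940. These were the single Abca1 transcript and 1 transcript each of Mvk and Dhcr7. The Mvk transcript had 142 and 142 estimated counts in WT WD against 84.7 and 45.8 in the knockout. It took 98.3% and 75.6% of the gene's estimated counts in WT WD against 74.3% and 39.5% in the knockout, the rest going to the other Mvk transcript. The Dhcr7 transcript had 101 and 60.1 estimated counts against 29.9 and 8.88, a log2 fold change of -2.09 (SE 0.69), while the gene as a whole was at -0.10 (SE 0.14). Reads shared by transcripts of 1 gene were divided between them by estimation, so such splits are less certain than the sums.

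The wider pathways were read from lists of other genes, in which the groups did not overlap in 45.5% of the sterol, 42.9% of the fatty acid and 40% of the lipoprotein genes tested, beside 39.6% of all genes. Of the 77 tested, 6 had an unadjusted p under 0.05, beside 5.38% of all genes. Of 25 other sterol genes 22 were tested, with a median log2 fold change of 0.04, and the groups did not overlap in 6 above and 4 below. Erlin1, which takes part in the breakdown of sterol-sensing proteins, was at 18.7 and 18.0 CPM in WT WD and at 27.5 and 27.9 CPM in Tas1r3-/- WD (log2 fold change 0.59, SE 0.15, unadjusted p = 0.013, adjusted p = 0.756 in edgeR). Tm7sf2, a sterol reductase of the late pathway, was at 16.1 and 27.2 CPM against 12.7 and 12.5 CPM, a log2 fold change of -0.79 that was -0.36 without WT WD replicate 2. Of 35 other fatty acid genes, all tested, the median was -0.10, and the groups did not overlap in 5 above and 10 below. Lpin1, a phosphatidate phosphatase of glycerolipid synthesis, was at 0.43 (SE 0.16), or 0.27 without WT WD replicate 2, and Thrsp, a lipogenic nuclear protein, at -0.63 (SE 0.24), both with unadjusted p under 0.05 and groups that did not overlap. Of 23 other lipoprotein genes 20 were tested, with a median of 0.02 and no overlap in 5 above and 3 below. Lrp2, a large endocytic receptor, was at 3.61 and 1.81 CPM against 9.48 and 6.84 CPM, a log2 fold change of 1.59 (SE 0.45). Its transcript is 15.5 kb long, and Lrp2 was at 1.24 with the length correction and at 1.18 without WT WD replicate 2. Pltp, the phospholipid transfer protein, was at 158 and 222 CPM against 125 and 126 CPM, a log2 fold change of -0.60 (SE 0.20) that was -0.34 without WT WD replicate 2. None of these 6 genes passed the adjusted threshold.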

How the data were processed

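Per the labels and the study's methods, the authors sequenced ribosomal RNA-depleted mRNA on the Ion Torrent platform, aligned reads to mm39 with STAR in Partek software, and deposited an expected (estimated) count for each RefSeq transcript and library, without normalization. The submitters' processing notes name STAR, Partek and mm39. The design assumed counts for genes, but the deposited table holds 30930 transcripts with estimated counts, each summing to at least 10 over the 4 libraries, and 30886 were paired with a gene by RefSeq accession (GRCm38.p6 table, names only). Sums over the transcripts of a gene were rounded to whole numbers. Unpaired transcripts (44), 0.385% to 2.53% of a library's counts, were left out. A count of 0 allows up to 3 counts, 0.482 to 0.526 CPM, for counting error only.

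Groups were compared with edgeR 4.0.16 in R 4.3.3 (quasi-likelihood test, TMM, filterByExpr, Benjamini-Hochberg adjustment over all genes tested). Calls were made at 1.5-fold and adjusted p under 0.05. DESeq2 1.42.0, limma-trend (limma 3.58.1), RLE size factors, total counts, filters of 1 or 10 counts, a replicate block, the most abundant transcript of each gene and leaving out each library were alternatives. A transcript length offset (loess, span 0.3, from GENCODE M39 canonical transcripts) and tests of transcripts were chosen after seeing the data. Coordinates and lengths are from GENCODE M39 on GRCm39, promoters from RefSeq on GRCm38.p6. The members and gene lists were chosen with earlier results of these data known. All 34 members are named. Values in each library are given for those whose groups did not overlap, those at an unadjusted p under 0.05 and 13 fixed genes, and Hsd17b7 was added after its values were seen. Of other pathway lists, genes at an unadjusted p under 0.05 are named, and Scd3, Fads3 and Fads6 were added after their values were seen. Figures were drawn with matplotlib 3.10.9.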

Additional observations from a re-analysis of the deposited data

How the results depend on the processing

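Each group had 2 libraries, 1 of which went against its tissue label, so a missing call here is no evidence of equal expression. The number of the 34 genes called was 0 under every alternative with all 4 libraries, and 0 to 4 with 1 library left out. The number at an unadjusted p under 0.05 was 1 with the transcript length offset and 0 to 18 with 1 library left out, and the number whose groups did not overlap was 22 to 30. The counts of 22 to 30 come from 1 library set against 2, where groups fail to overlap more easily than with 2 against 2. No share of all genes is given for these fits. These counts therefore cannot be compared with the 17 of the 34 found with all 4 libraries, and they show no stronger separation. The sterol sensing median was -0.35 with the most abundant transcript of each gene and -0.167 to -0.0840 with 1 library left out. The cholesterol synthesis median was -0.22 to 0.00997, the fatty acid median 0.13 to 0.19 and 0.10 with the length offset, and the lipoprotein median 0.15 to 0.44 and 0.12 with the length offset. Of the 34 genes, 33 kept their sign under the 7 alternatives with all libraries and summed transcripts. Insig2, near 0, turned to 0.00972 with total counts, 0.00272 with limma-trend, 0.00308 without the filter, 0.00254 with the replicate block and 0.0149 with the length offset. That offset also turned Sc5d to -0.00612 and Fasn to -0.13, and the most abundant transcript turned Dhcr7 to 0.64. With 1 library left out, 21 genes kept their sign. The log2 fold changes of the other 13 ranged from -0.12 to 0.12 for Srebf2, -0.44 to 0.0234 for Insig1, -0.10 to 0.11 for Insig2, -0.0616 to 0.22 for Acat2, -0.25 to 0.18 for Hmgcs1, -0.0909 to 0.26 for Idi1, -0.26 to 0.0890 for Sqle, -0.33 to 0.00997 for Lss, -0.14 to 0.0489 for Msmo1, -1.10 to 0.0547 for Hsd17b7, -0.0758 to 0.14 for Sc5d, -0.13 to 0.18 for Apoe and -0.0816 to 0.0118 for Abcg1. With the replicate block 3 of the 34 had an unadjusted p under 0.05, Abca1, Mvk and Lrp1, where Acaca stood in place of Lrp1 without it, and 667 of all genes did, against 772 without it. Same-numbered libraries shared only a number, with a correlation of 0.08 between their deviations. The cause of these changes was not tested.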
